A study of Mus musculus with 48 samples.

Results

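Among the 48 cortex RNA-seq libraries of the study, 24 were labelled as carrying the Q140 allele of Htt, and these fell on either side of a gap in the RNA level of 1 gene, Abhd1. The 4 libraries under 4.5 CPM (the usual depth-scaled unit: a gene's count divided by the library's total count and multiplied by a constant) are called low here, and the other 20 labelled Q140 are called high. The low libraries were compared with the high ones, and each set with the 24 libraries not labelled Q140. The members were chosen by their measured Abhd1 level, so its values are a description and carry no test.

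The tissue was cerebral cortex of mice at 6 months of age, all listed on a C57BL/6 background. The labels number the libraries as replicates and do not say whether each is a separate animal, so p-values measure the spread between libraries. Q140 is a knock-in at Htt, the huntingtin gene, that lengthens its CAG repeat, carried here on 1 of the 2 alleles. Msh3 was unaltered, altered on 1 allele (Msh3+/-) or altered on both (Msh3-/-), and the labels do not say how that allele was made. The libraries not labelled Q140 were 7 wild type (WT, 3 female and 4 male), 9 Msh3+/- (5 female and 4 male) and 8 Msh3-/- (4 of each sex). Those labelled Q140 were 8 with unaltered Msh3 (Q140), 8 Q140 x Msh3+/- and 8 Q140 x Msh3-/-, with 4 of each sex in each. The low libraries were Q140 x Msh3-/- females 1, 3 and 4 and Q140 x Msh3+/- male 2. Of the 8 libraries labelled Q140 with unaltered Msh3, 0 were low.

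Huntingtin is a large scaffold protein, and a long CAG repeat in its gene causes Huntington disease, in which striatal and cortical neurons are lost. Msh3 binds small loops of unpaired DNA in mismatch repair and is known to promote the lengthening of such repeats in somatic cells. Abhd1 belongs to a family of proteins with an alpha/beta hydrolase fold, many of which cut lipids. It lies on the same chromosome as Htt. Genes that lie close together on a chromosome tend to be inherited together, so genes of chromosome 5 are not independent of a rule set on Abhd1 and are described below, with no test read from them, in the comparisons of low, high and not labelled libraries.

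The other labels of the 4 low libraries matched their RNA. Xist, the RNA that silences an X chromosome in females, was at 1302, 1019 and 1284 CPM in the 3 low females and at 0.424 CPM in the low male. Ddx3y, a gene of the Y chromosome, was at 61.1 CPM in that male and at most 0.0472 CPM in the females. Msh3 RNA rose with the number of altered alleles, with medians of 23.99 CPM in WT, 65.6 in Msh3+/- and 109 in Msh3-/-. In the low libraries it was 121, 104 and 113 CPM in the 3 labelled Msh3-/- and 74.9 CPM in the 1 labelled Msh3+/-. The unlabelled Msh3-/- libraries spanned 97.3 to 122 CPM and the unlabelled Msh3+/- ones 61.8 to 78.6, which hold those values. Htt itself, counted over the whole gene, was at 237, 236, 254 and 243 CPM in the low libraries, inside the 223 to 256 CPM of the high ones and the 224 to 257 CPM of those not labelled. These counts do not tell the 2 Htt alleles apart, and repeat length was not analysed here. Whether the 4 low libraries carry the Q140 allele their labels give was therefore not tested, and every comparison that uses the Q140 label rests on the label alone.

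Library totals ran from 35946572 to 64479357 counts. The low libraries ranked 1, 44, 12 and 3 of the 48 from the shallowest up, in the order Q140 x Msh3-/- female 1, female 3, female 4 and Q140 x Msh3+/- male 2. By the well codes of the labels, 3 of the 4 stood in plate column 4, which also held 3 high libraries and 2 not labelled Q140. Library names share stems whose meaning the labels do not give. Of the 8 libraries with the stem of a low library, 4 were the low ones, 0 were high and 4 were not labelled Q140. Q140 x Msh3-/- females 3 and 4 shared their stems with no other library. The unlabelled ones had the stem of Q140 x Msh3-/- female 1 (Msh3-/- females 3 and 4, Msh3+/- female 3) or of Q140 x Msh3+/- male 2 (Msh3-/- male 1). The part of plate column and stem in the results was not tested beyond the alternatives below. No low library was a copy of another: chi-square over degrees of freedom with its nearest library was at least 5.47.

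Abhd1 (GRCm38 chr5:30950066-30955091, plus strand, a processed transcript in GENCODE M21) was at 3.67 CPM (132 counts) in Q140 x Msh3-/- female 1, 2.86 (151 counts) in female 3, 2.62 (111 counts) in female 4 and 2.94 (111 counts) in Q140 x Msh3+/- male 2. The 20 high libraries ran from 5.18 to 7.52 CPM with a median of 6.29. The 24 libraries not labelled Q140 ran from 2.13 to 3.67 CPM with a median of 2.72. The low libraries thus lay inside the range of the unlabelled ones, except that Q140 x Msh3-/- female 1 was just above the highest of them, and the high libraries overlapped neither set. Just inside and outside the threshold stood Q140 x Msh3-/- female 1 and Q140 x Msh3-/- male 4, at 3.67 and 5.18 CPM. The same 4 libraries stood apart on TMM-scaled CPM (highest low 3.63, lowest high 5.23) and on the deposited FPKM (2.09 and 2.95). Within labelled groups, 3 of 4 Q140 x Msh3-/- females were low against 0 of 4 males, and 1 of 8 Q140 x Msh3+/- libraries was. In the fit over all libraries Abhd1 differed by -1.09 (SE 0.10) on the log2 scale between low and high, by 0.08 (SE 0.10) between low and not labelled, and by 1.17 (SE 0.05) between high and not labelled.

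**Figure D1:**
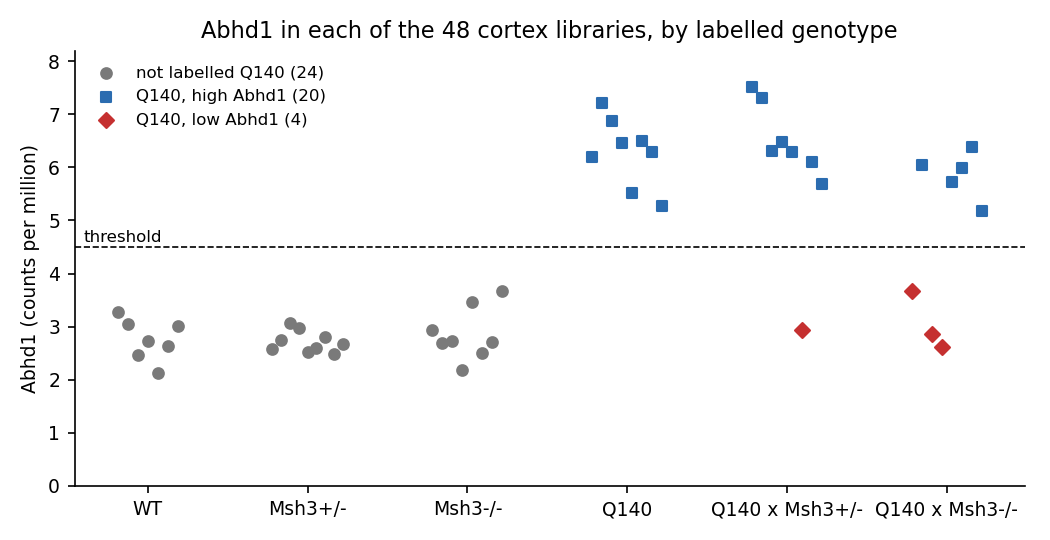
Abhd1 level (vertical axis, CPM) in each of the 48 libraries, by labelled genotype, with 1 point per library and the threshold of 4.5 CPM as a dashed line. The 4 low libraries (red diamonds, 2.62 to 3.67) stand among the levels of the 24 libraries not labelled Q140 (grey circles, 2.13 to 3.67), below the 20 high libraries (blue squares, 5.18 to 7.52).

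Preb, a regulator of transport out of the endoplasmic reticulum, overlaps Abhd1 on the opposite strand. How the counting used strand is not given in the sources used here, so reads of the shared stretch cannot be assigned with certainty. Preb was at 61.9, 57.7, 56.9 and 62.3 CPM in the low libraries, 53.1 to 63.1 (median 59.0) in the high and 53.0 to 64.3 (median 59.9) in those not labelled. All 3 sets overlapped, and the fitted log2 difference between low and high was 0.03 (SE 0.04).

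Atraid, Mrpl33 and Gm2420, also on chromosome 5, were given with Abhd1 as markers of this split, and 2 of the 4 markers have an entry in the RefSeq table of upstream sequences. The 250 bases before the RefSeq start site are shown for these, Atraid (GRCm38.p6 chr5:31048390-31048639, plus strand) and Mrpl33 (chr5:31613701-31613950, plus strand), since their levels differed in opposite directions. Both stretches lie inside the GENCODE gene spans given below, whose starts are farther upstream than the RefSeq ones used here. Capitals mark GGGCGG, the core of the GC box that Sp-family factors bind, and CCAAT, the box bound by NF-Y, searched on both strands together with TATAAA.
Atraid: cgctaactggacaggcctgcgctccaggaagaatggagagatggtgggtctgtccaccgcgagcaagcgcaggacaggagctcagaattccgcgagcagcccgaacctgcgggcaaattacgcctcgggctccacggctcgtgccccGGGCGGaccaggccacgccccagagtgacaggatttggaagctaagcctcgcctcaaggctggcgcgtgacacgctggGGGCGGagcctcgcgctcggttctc
Mrpl33: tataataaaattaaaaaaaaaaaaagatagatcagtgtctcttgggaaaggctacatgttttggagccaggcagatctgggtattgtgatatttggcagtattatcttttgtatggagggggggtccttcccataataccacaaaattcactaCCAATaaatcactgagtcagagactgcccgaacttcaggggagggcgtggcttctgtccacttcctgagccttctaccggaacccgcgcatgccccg
The Atraid stretch held 2 GGGCGG and was 66.4% G or C with 24 CG dinucleotides, against medians of 52.4% and 6 over 32851 mouse promoters. The Mrpl33 stretch held 1 CCAAT and was 45.2% G or C with 6 CG dinucleotides. GGGCGG occurred in 32.7% of those promoters, CCAAT in 33.8% and TATAAA in 12.4%. TATAAA was in neither stretch. These are the reference letters, and the match of a motif is a description only.

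Atraid, which encodes a membrane protein induced by retinoic acid, was at 39.0, 34.6, 33.5 and 37.5 CPM in the low libraries (Q140 x Msh3-/- females 1, 3 and 4, then Q140 x Msh3+/- male 2, the order used throughout). High libraries held 26.4 to 32.8 CPM (median 29.8) and those not labelled 29.4 to 40.1 (median 35.3). All 4 low libraries lay above all 20 high ones and within the unlabelled range. The fitted log2 difference was 0.33 (SE 0.05) for low against high, 0.08 (SE 0.05) for low against not labelled and -0.26 (SE 0.03) for high against not labelled. Atraid (chr5:31048312-31054623) overlaps Slc5a6, a vitamin transporter gene on the other strand, which stood at 20.3 to 22.2 CPM in the low, 18.0 to 23.3 in the high and 17.5 to 22.7 in the unlabelled libraries.

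Mrpl33 encodes a protein of the large subunit of the mitochondrial ribosome (chr5:31596935-31664384). Its level was 10.2, 9.10, 8.06 and 8.84 CPM in the low libraries, 9.90 to 12.5 (median 11.4) in the high and 7.95 to 11.4 (median 9.35) in the unlabelled ones. All but 1 of the 4 low libraries lay below every high one, and Q140 x Msh3-/- female 1 lay above 2 of the 20. The fitted log2 difference was -0.33 (SE 0.06) for low against high, -0.09 (SE 0.06) for low against not labelled and 0.24 (SE 0.03) for high against not labelled. Of the 2 genes that overlap it, Rbks, which encodes ribokinase, held 1.0 to 1.22 CPM in the low libraries against 0.724 to 1.52 in the high. The non-coding Gm43809 had 0 counts in all 4 low libraries and at most 0.0599 CPM in the high ones.

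Gm2420 is an unprocessed pseudogene with transcripts (chr5:32720330-32736194), so reads may be shared with the gene it was copied from. It was rare: 1, 2, 3 and 3 counts in the low libraries, or 0.0278, 0.0378, 0.0707 and 0.0794 CPM. The high libraries held 0.108 to 0.639 CPM (median 0.485) and the unlabelled ones 0 to 0.230 (median 0.0419). Low and high libraries did not overlap, and each low library lay within the unlabelled range. The fitted log2 difference of -2.85 (SE 0.48) between low and high depends on the prior count at such levels. High against not labelled gave 2.90 (SE 0.21), and low against not labelled 0.05 (SE 0.60).

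**Figure D2:**
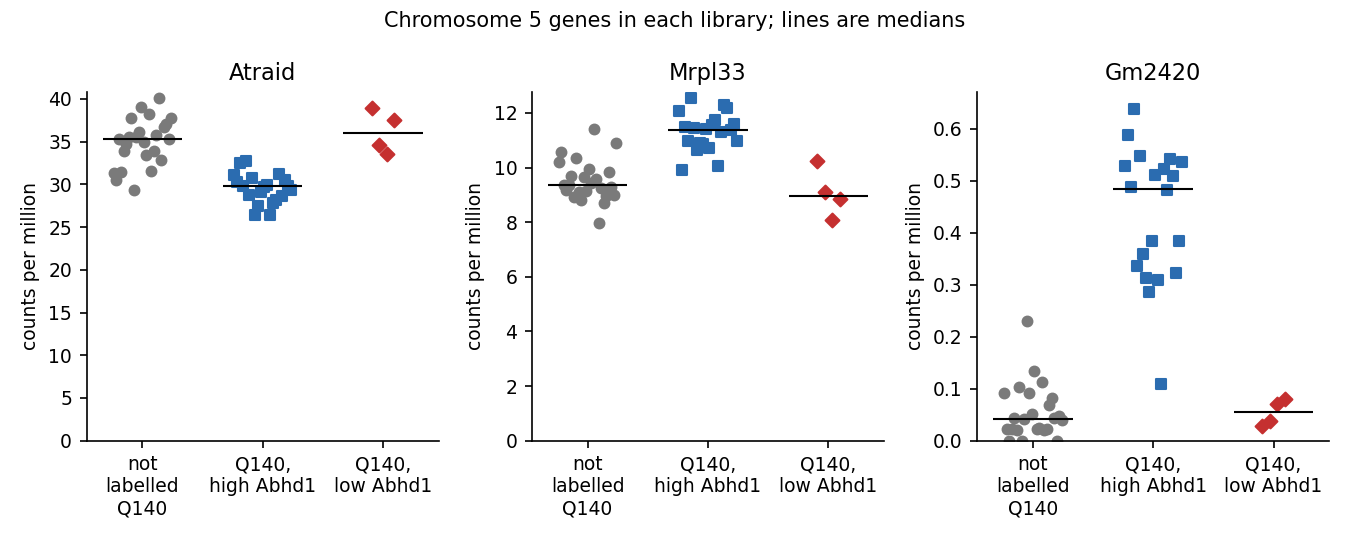
Levels (vertical axes, CPM) of Atraid, Mrpl33 and Gm2420 in the 24 libraries not labelled Q140, the 20 high and the 4 low Abhd1 libraries, 1 point per library, with the median of each set as a line. For Atraid and Gm2420 the low points do not overlap the high ones, and for Mrpl33 the highest low library, at 10.2, reaches into the range of the high ones.

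On a scale with 0 at the mean of the unlabelled and 1 at the mean of the high libraries in log2 CPM, the mean over Atraid, Mrpl33 and Gm2420 placed the low libraries between -0.20 and -0.088. High libraries stood between 0.75 and 1.24 and unlabelled ones between -0.39 and 0.45. No low library held an intermediate place on this mean. By single gene, the highest placed value of a low library was 0.44, for Mrpl33.

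The low libraries were then placed along chromosome 5 with the 15 genes that ranked first by p in high against not labelled, a choice that uses the rule's own contrast. Of these, 11 start within 10 Mb of Htt, all before it, and for 10 of the 11 the mean of the low libraries lay nearer the unlabelled than the high libraries in log2 CPM. That count holds Abhd1 and the other 3 markers, which were given with the split. Without these it was 6 of 7 by mean and 5 of 7 in the fit, where Gareml too lay nearer the high libraries (-0.053 from high, 0.072 from unlabelled). By mean the exception was Khk, the gene of ketohexokinase, at 6.81 ± 0.42 CPM in the 4 low, 7.00 ± 0.69 in the 20 high and 6.27 ± 0.61 in the 24 unlabelled libraries (SD). The other 4 genes lie farther away, and for 3 of them the low mean lay nearer the high one. Nptx2, an activity-regulated pentraxin of synapses, held 28.7, 31.5, 36.8 and 34.5 CPM in the low libraries, with medians of 35.6 in the high and 42.4 in the unlabelled ones. Nwd2 (medians 55.5, 56.2 and 61.4 in low, high and unlabelled) and the non-coding Gm15721 (7.11, 6.99 and 7.78) were the other 2. Ranges of all 3 sets overlapped for these 3 genes.

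Among the nearby genes, Ppp1cb, the beta catalytic subunit of protein phosphatase 1, was at 288, 260, 274 and 287 CPM in the low libraries. It ran from 228 to 284 CPM (median 242) in the high and 243 to 300 (median 262) in the unlabelled ones. Cgref1, a calcium-binding growth regulator next to Abhd1, was at 8.93, 7.74, 8.39 and 8.37 CPM in the low libraries against medians of 10.5 in the high and 8.91 in the unlabelled. All but 1 of its 4 low values lay below all 20 high ones. Tyms, thymidylate synthase, held 1.78, 1.51, 1.49 and 2.04 CPM against medians of 1.39 and 1.68. Counted per library over the 7 genes within 10 Mb other than the markers, 6, 4, 6 and 5 lay nearer the unlabelled mean.

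In the comparison of all 24 libraries labelled Q140 with the other 24, 25 of the 216 tested genes within 10 Mb of Htt had an unadjusted p under 0.05 (11.6%), against 5.70% of all 20010 genes tested. Before Htt the count was 20 of 142 (14.1%), and after it 5 of 73 (6.85%). Between 2 and 6 Mb before Htt, the stretch that holds the 4 markers, it was 16 of 73 (21.9%). The 4 markers, with the gene of the rule, are among the 25, the 20 and the 16. These shares are therefore not independent of the split and are a description only.

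**Figure D3:**
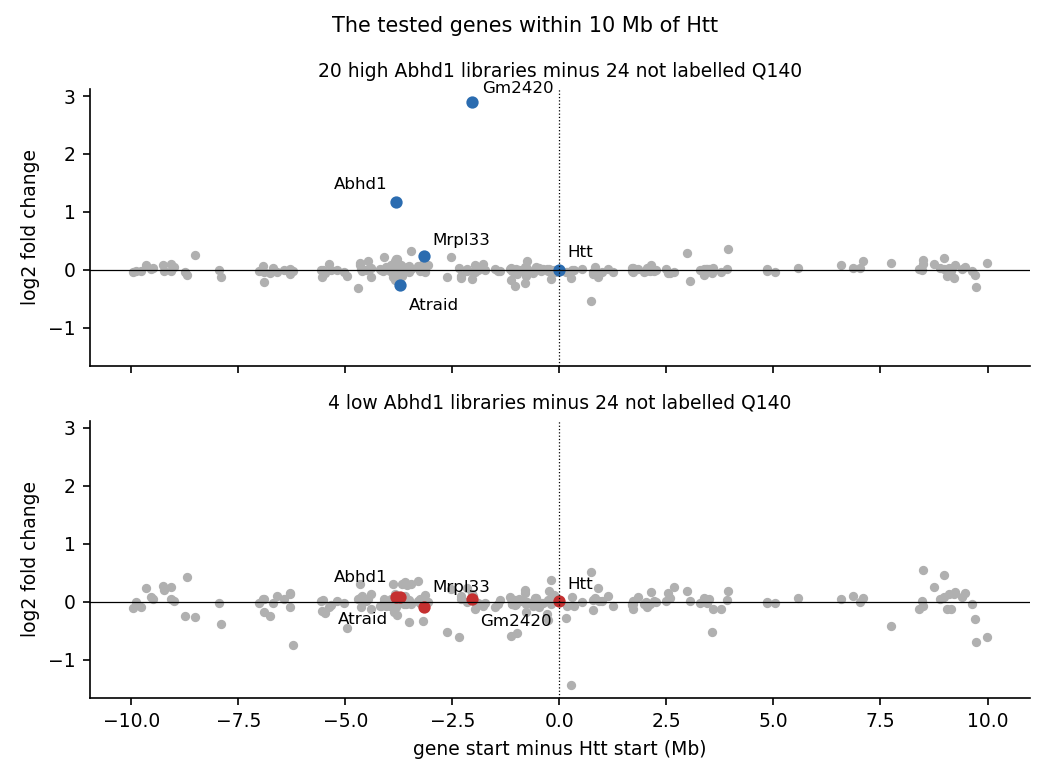
Fitted log2 fold change (vertical axes) of the 216 tested genes within 10 Mb of Htt against the distance of their start from the start of Htt in Mb (horizontal axis), for high minus unlabelled libraries above and low minus unlabelled libraries below. In the upper panel Gm2420 stands at 2.90 and Abhd1 at 1.17, and in the lower panel they stand at 0.05 and 0.08.

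Outside chromosome 5 the low and high libraries were compared with a test, in a fit with the number of altered Msh3 alleles and sex as terms. Of 18572 genes there, 1 was called (0.00538%) at an adjusted p under 0.05 in the quasi-likelihood test of edgeR, adjusted by Benjamini-Hochberg. Over all 20010 genes the count was 5 (0.025%), which takes in genes of chromosome 5 and is given only as background, since the rule used this contrast. In all, 1147 had an unadjusted p under 0.05 (5.73%). The called gene was Gm6166, a processed pseudogene (chr9:57483963-57484371), which was higher in the low libraries by 0.91 (SE 0.14) on the log2 scale (adjusted p = 0.000462, edgeR).

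Gm6166 was at 23.0, 8.82, 19.9 and 20.04 CPM in the 4 low libraries. The 20 high libraries held 8.14 to 10.9 CPM (median 9.49), and 23 of the 24 unlabelled ones 8.2 to 11.4. All but 1 of the 4 low libraries stood above every high library: Q140 x Msh3-/- female 3 stood inside the high range. The remaining unlabelled library, Msh3+/- female 3, was also high, at 22.4 CPM, and has the name stem of Q140 x Msh3-/- female 1. Msh3-/- females 3 and 4 have that stem too and were within the 8.2 to 11.4 CPM. So was Msh3-/- male 1, which has the stem of Q140 x Msh3+/- male 2. Without Q140 x Msh3+/- male 2 the adjusted p rose to 0.0679 with a log2 difference of 0.86, and without Q140 x Msh3-/- female 3 it was 2.95e-07 with 1.13 (edgeR). The call was also lost among females only (adjusted p = 0.841) and among libraries with both Msh3 alleles altered (adjusted p = 1), where the differences were 0.91 and 0.83. Over all alternatives the adjusted p ran from 4.76e-08 to 1. A processed pseudogene is a copy of a spliced message, so its reads could belong in part to its source or to other copies.

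The next 4 genes by p outside chromosome 5 missed the threshold. Ints7 encodes a subunit of the Integrator complex, which cleaves nascent small nuclear RNA. It was at 31.8, 47.1, 62.1 and 48.9 CPM in the low libraries, and at 57.1 to 65.5 (median 62.1) in the high ones (log2 difference -0.39, SE 0.08, edgeR adjusted p = 0.0541). In Ints7, 3 low libraries lay below every high one, and Q140 x Msh3-/- female 4 lay at the high median. Leaving out that library gave -0.53 and an adjusted p of 0.000155 (edgeR), the lowest of a range over alternatives that reached 1. Msh3+/- female 3, at 46.7 CPM, was the lowest of the unlabelled libraries, whose median was 60.2.

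Gm14328, a processed pseudogene on chromosome 18, was at 3.76, 1.84, 3.49 and 3.49 CPM in the low libraries, 1.37 to 2.20 in the high ones and 4.32 in Msh3+/- female 3 (log2 difference 0.80, SE 0.18, edgeR adjusted p = 0.129). The 4 libraries with the most Gm14328 were the 4 with the most Gm6166. Fabp5, a fatty acid carrier, was at 34.6, 37.8, 31.4 and 33.6 CPM against 36.2 to 46.2 (median 41.1) in the high and 36.4 to 46.5 (median 40.1) in the unlabelled libraries (-0.24, SE 0.05, edgeR adjusted p = 0.0561). For Fabp5, 3 of the 4 low values lay below both ranges. The pseudogene Gm28071 had only 8 to 14 counts in a low library, 0.189 to 0.306 CPM, against medians of 0.488 in the high and 0.433 in the unlabelled ones (edgeR adjusted p = 0.0541). Leaving out the unlabelled Msh3+/- female 3, an alternative chosen after the data were seen, brought all 4 under the threshold in low against high, at edgeR adjusted p of 0.011 for Ints7, 0.00135 for Gm14328, 0.0394 for Fabp5 and 0.0493 for Gm28071. With Gm6166 that made 5 called genes outside chromosome 5.

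**Figure D4:**
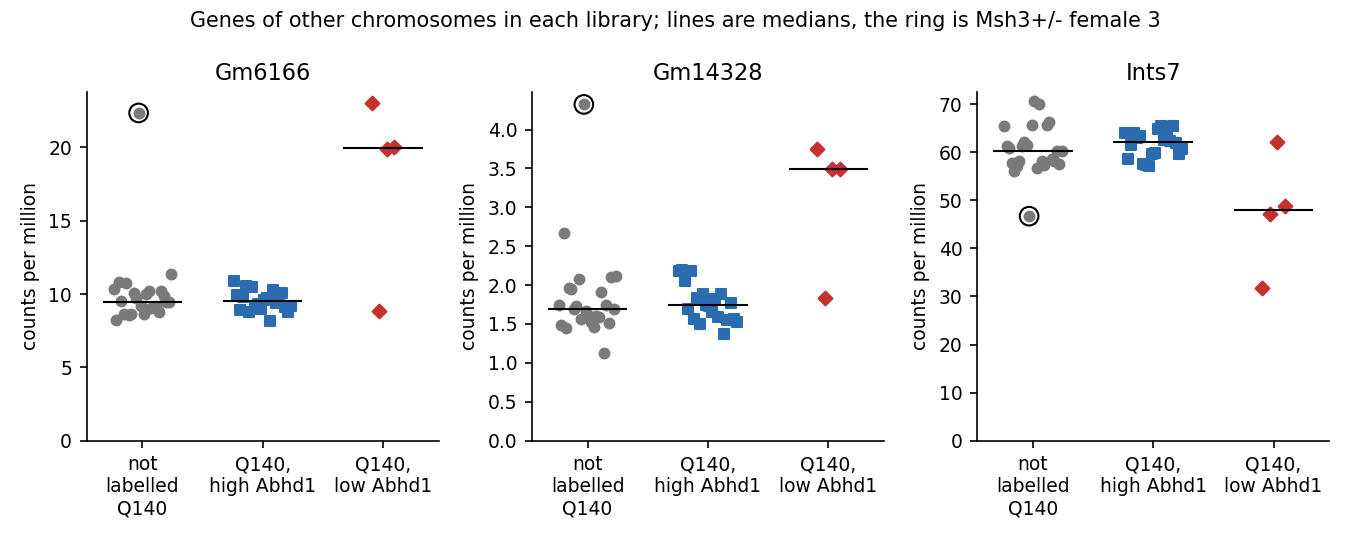
Levels (vertical axes, CPM) of Gm6166, Gm14328 and Ints7 in each library, in the 24 libraries not labelled Q140, the 20 high and the 4 low Abhd1 libraries, with medians as lines and Msh3+/- female 3 ringed. In each panel 3 of 4 low points stand away from the high ones, and the ringed library stands with them at 22.4, 4.32 and 46.7.

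The CPM ranges of low and high libraries did not overlap for 12 of 20010 genes (0.06%), 4 of them higher in the low libraries (0.02%) and 8 lower (0.04%). Among these were the markers Abhd1, Atraid and Gm2420. The others were Ltbp2, Gvin1 and Gm5607, higher, and Sst, Chac1, Arpc3, Fam131b, Adnp2 and Gm12475, lower; they were named after their values were seen. Sst, the somatostatin gene of a class of cortical interneurons, was at 104, 101, 105 and 106 CPM in the low libraries and 108 to 138 (median 116) in the high ones. The unlabelled libraries spanned both, 98.5 to 145 CPM, and Sst was not called (log2 difference -0.15, SE 0.06, edgeR adjusted p = 0.865). Arpc3, a subunit of the actin-nucleating Arp2/3 complex on chromosome 5, was at 82.6 to 86.1 CPM in the low libraries, below both the high (86.2 to 98.1) and the unlabelled ones (87.8 to 103).

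Against the 24 unlabelled libraries, which are also the reference for the high ones, the low libraries gave 1 called gene of 20010 (0.005%), again Gm6166 (log2 difference 0.83, SE 0.14, edgeR adjusted p = 0.00468). The adjusted p was 0.207 with plate column as a term, and 0.239, 0.0671 and 0.412 without Q140 x Msh3-/- female 1, Q140 x Msh3-/- female 4 or Q140 x Msh3+/- male 2 (edgeR). Without Msh3+/- female 3 it was 4.81e-08 with a log2 difference of 0.91, and 4 genes were called outside chromosome 5 (edgeR). DESeq2 called 11 genes outside chromosome 5 in this comparison and limma with voom weights 18. Unadjusted p was under 0.05 for 1621 genes (8.1%). CPM ranges did not overlap for 7 genes (0.035%), 3 higher and 4 lower in the low libraries.

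For high against unlabelled libraries the count over all genes was 4 (0.02%), all on chromosome 5 and again only background to the rule. Outside chromosome 5 edgeR called 0, with 847 genes (4.23%) over all chromosomes and 769 outside it at an unadjusted p under 0.05, DESeq2 5 and limma with voom weights 2. The 5 smallest p there belonged to Plpp3, Tmc3, Car2, Mia and Camk2n1. Car2 is carbonic anhydrase 2, abundant in oligodendrocytes. It was at 94.6, 82.3, 87.8 and 92.2 CPM in the low libraries, 87.6 to 110 (median 94.6) in the high and 94.6 to 114 (median 103) in the unlabelled ones. Its fitted log2 difference from the unlabelled libraries was -0.22 (SE 0.05, edgeR adjusted p = 0.112) for low and -0.11 (SE 0.02, edgeR adjusted p = 0.153) for high. Low against high was -0.11 (SE 0.05, edgeR adjusted p = 0.865), so for Car2, unlike the markers, the low mean was on the far side of the high one. Plpp3, a lipid phosphatase of astrocytes, had medians of 204, 204 and 217 CPM in low, high and unlabelled libraries, and -0.09 (SE 0.02, edgeR adjusted p = 0.122) for high against unlabelled.

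Immediate early genes, which neurons switch on within minutes of activity, had lower fitted levels in the low than in the high libraries. This held for 23 of 24 members, with a median log2 difference of -0.49 against -0.0020 over all genes tested, and 0 were called by edgeR, with 11 of 24 at an unadjusted p under 0.05 against 5.73% of all genes tested. Against unlabelled libraries the median was -0.53, and for high against unlabelled -0.11. Fos, a transcription factor of this class, was at 21.3, 14.8, 14.3 and 19.4 CPM in the low libraries, 6.34 to 77.7 (median 46.1) in the high and 8.09 to 96.4 (median 39.1) in the unlabelled ones. Arc, which acts at synapses, was at 262, 129, 114 and 173 CPM against medians of 411 and 503. All 4 low values of both genes were in the lower part of ranges that overlapped. Fos gave -1.06 (SE 0.46, edgeR adjusted p = 0.865) and Arc -1.23 (SE 0.42, edgeR adjusted p = 0.833) for low against high.

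The per-library mean of the list, as log2 CPM minus the mean of all 48 libraries, was -0.47, -0.61, -0.74 and -0.46 in the low libraries. High libraries ran from -0.95 to 0.49 (median 0.06), with Q140 male 2 and Q140 x Msh3-/- male 2 below every low library. The list also differed by sex in the unlabelled libraries, with medians of 0.57 in 12 males and -0.18 in 12 females, while in the high libraries they were 0.070 in 11 males and 0.052 in 9 females. In the low set 3 of the 4 libraries were female. Sex was a term of the fit. The 9 high females lay between -0.29 and 0.27, above all 3 low females, whose values were -0.74 to -0.47. All 3 low females were Q140 x Msh3-/-, a genotype that only Q140 x Msh3-/- female 2 had among the high females. Msh3 genotype and the split can therefore hardly be told apart in this comparison of females. Among the unlabelled females the lowest was -1.01, so the ranges overlapped there. The part of sex in this difference was not tested beyond that term.

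**Figure D5:**
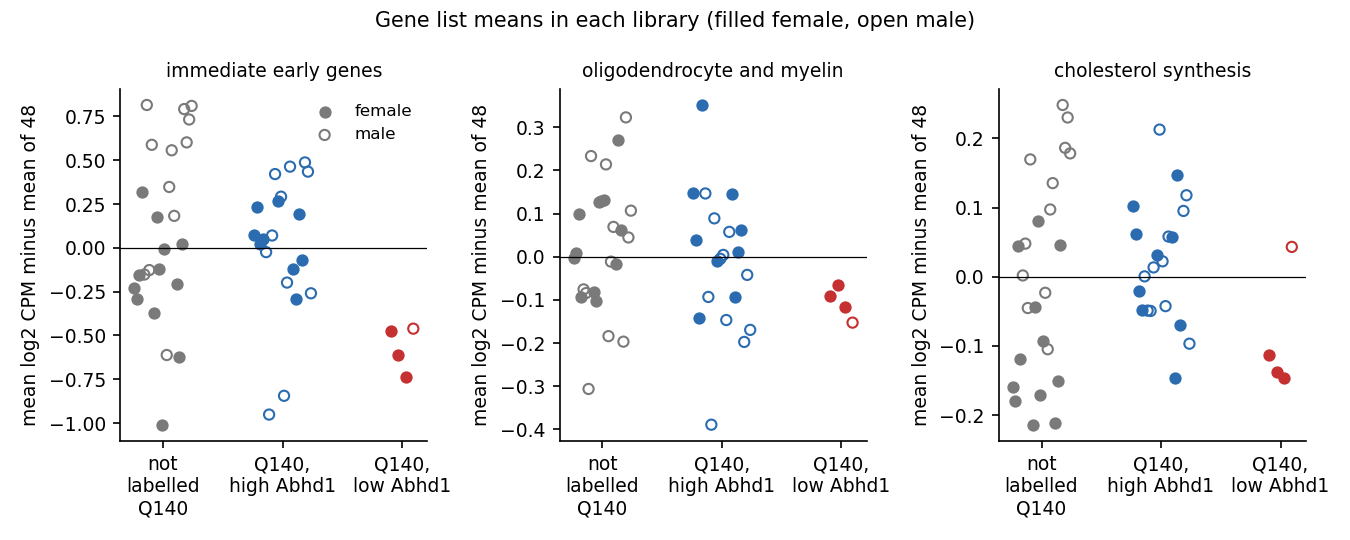
Mean log2 CPM of 3 gene lists in each library minus the mean of all 48 libraries (vertical axes), for the 24 libraries not labelled Q140, the 20 high and the 4 low Abhd1 libraries, females filled and males open. In all 3 lists the low libraries lie within the spread of the high ones. For immediate early genes they lie between -0.74 and -0.46, in the lower part of it.

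Oligodendrocyte and myelin genes were below the high libraries in 16 of 18 members (median log2 difference -0.11) and below the unlabelled ones in 18 of 18 (-0.14), with 0 called by edgeR in either. At an unadjusted p under 0.05 were 0 and 2 of the 18, against 5.73% and 8.1% of all genes tested. Mbp, myelin basic protein, was at 730, 845, 836 and 752 CPM in the low libraries against 667 to 1281 (median 914) in the high. In bulk tissue, fewer cells of a type and less RNA per cell cannot be told apart. Cholesterol synthesis genes were lower in 21 of 22 members by a median of only -0.054, and their per-library means were -0.11, -0.14 and -0.15 in the low females and 0.04 in the low male. The list differed by sex in the unlabelled libraries, with medians of -0.13 in females and 0.12 in males. The low females thus stood near the unlabelled female median, while the high medians were 0.03 in females and 0.01 in males. Microglial genes (6 of 18 above, median -0.028) and astrocyte genes (6 of 12 above, 0.0094) moved little.

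The other lists had 0 called genes between low and high outside chromosome 5, by edgeR. Activity-dependent secreted and synaptic genes were below in 13 of 15 members (median log2 difference -0.077), striatal projection neuron genes known to fall in Huntington models in 16 of 23 (-0.047) and layer markers of excitatory neurons in 8 of 14 (-0.041). At an unadjusted p under 0.05 in edgeR were 2 of 15, 2 of 23 and 3 of 14 of these, against 5.73% of all genes tested. Per-library means of the layer markers were -0.208, -0.112, -0.097 and -0.106 in the low libraries. The high ones ran from -0.113 to 0.144 (median -0.004) and the unlabelled from -0.172 to 0.216 (median 0.008). Interneuron genes were above in 7 of 12 (0.066), vascular and meningeal genes in 11 of 13 (0.056), mismatch repair genes in 10 of 17 (0.012), genes around Msh3 in 17 of 28 (0.023) and sex-linked genes in 5 of 6 (0.085). In that order 4, 0, 1, 1 and 0 members had an unadjusted p under 0.05 in edgeR. Among neighbours of Abhd1, 32 of 45 were below (-0.029), and among genes of the Htt locus 16 of 33 (0.0076). The neighbours include the markers Atraid and Mrpl33, which were given with the split, so their count is a description only. Of all 20010 genes tested, 10192 were below.

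Markers of blood and choroid plexus, which a dissection can carry along, were uneven. The 5 blood genes were all above the high libraries (median log2 difference 0.97, 0 called), with summed levels of 11.9, 2.08, 4.5 and 8.34 CPM in the low libraries, 0.358 to 8.95 in the high and 0.111 to 17.3 in the unlabelled ones. The 6 tested choroid plexus genes were all below in the fit (-0.77, 0 called). Their summed levels went the other way, at 9.99, 5.62, 13.7 and 6.72 CPM (median 8.36) in the low libraries. The high ones held 3.73 to 11.4 (median 6.51). Unlabelled libraries, which share the fit, reached 1171 CPM, and their weight in the fitted value was not tested. The part of blood and choroid plexus RNA in the results above was not tested. Within the ABHD family, 11 of 20 tested members were above and 9 below (median 0.0074), and 0 called other than Abhd1, which set the split. Abhd12b was at 0.751, 0.265, 0.754 and 0.953 CPM in the low libraries against 0.217 to 0.746 in the high (log2 difference 0.71, SE 0.26, edgeR adjusted p = 0.843).

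The labelled comparisons hold the low libraries unevenly. In Q140 x Msh3-/- against Msh3-/-, where 3 of 8 labelled Q140 were low, edgeR called 0 of 20010 genes with all libraries (1361 at an unadjusted p under 0.05, 6.8%), while DESeq2 called 5 and limma with voom weights 0. Abhd1 set the split and Gm2420 was given with it as a marker, so both are given without a test. They stood at 0.75 (SE 0.15) and 2.53 (SE 0.54) on the log2 scale. Without the low libraries they stood at 1.06 (SE 0.09) and 3.2 (SE 0.44). Removing libraries by their Abhd1 level makes these values a description. The 5 genes of smallest p with all libraries were Prlr, Mir3058, Gm44126, Ttr and Aqp1. Ttr, the transthyretin gene of the choroid plexus, gave -4.92 (SE 1.23), and 0.26 once the 3 unlabelled libraries with the highest Ttr, at up to 1074 CPM, were left out.

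In Q140 x Msh3+/- against Msh3+/-, with 1 low library of 8, edgeR called 3 genes (0.015%), with 1240 at an unadjusted p under 0.05 (6.2%). These 3 were Abhd1 at 1.16 (SE 0.14), Gm2420 at 2.33 (SE 0.41) and Gm44769 at 0.39 (SE 0.07, edgeR adjusted p = 0.00619). Abhd1 set the split and Gm2420 was given with it as a marker, so the calls of both are background only. Atraid and Mrpl33 stood at -0.25 (SE 0.04) and 0.26 (SE 0.05) without the low libraries, as a description. With all libraries they stood at -0.20 and 0.22, and neither was called. With plate column as a term Gm44769 was not called (edgeR adjusted p = 0.502). The next genes by p outside chromosome 5 were Sync, Kcnv1, Esam and Gm13146, at edgeR adjusted p from 0.23 to 0.78. The difference between the Q140 effects in Msh3-/- and in unaltered Msh3 had 0 called genes by edgeR, 0 by DESeq2 and 0 by limma's voom fit, with 1070 at an unadjusted p under 0.05 in edgeR (5.35%). It also had 0 by edgeR without the low libraries. For Abhd1 that difference moved from -0.43 (SE 0.21) to -0.12 (SE 0.13) when they were left out. That shift follows from the rule, which picks libraries by their Abhd1 level.

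Over all 24 libraries labelled Q140 against the other 24, edgeR called 8 genes (0.04%). The 4 markers were among them as background only, since Abhd1 set the split and the other 3 were given with it. On other chromosomes edgeR called Car2 (-0.13, SE 0.02, adjusted p = 0.0225), Plpp3 (-0.09, SE 0.02, adjusted p = 0.0268), Mia (-1.01, SE 0.21, adjusted p = 0.0323) and Cyth1 (0.08, SE 0.02, adjusted p = 0.0436). Without the 4 low libraries 1 gene was called outside chromosome 5, Plpp3 (adjusted p = 0.0425, edgeR). The log2 differences of the other 3 were then -0.11 for Car2 (adjusted p = 0.164), -0.94 for Mia (adjusted p = 0.214) and 0.07 for Cyth1 (adjusted p = 0.316). Outside chromosome 5 the count was likewise 1 without Q140 x Msh3-/- female 1 alone. Over the alternatives tried, Cyth1 lost its call in 11 of 17, Mia in 8 of 13, Plpp3 in 6 of 17 and Car2 in 1 of 17. Those alternatives include changes of method, filter and terms that keep the low libraries. Cyth1, which encodes an exchange factor for Arf GTPases, was at 79.3, 73.3, 76.7 and 88.0 CPM in the low libraries against medians of 77.8 in the high and 73.8 in the unlabelled. So the low libraries lay on the high side of the unlabelled median for Cyth1 in 3 of 4 cases. Abhd1 stood at 1.03 (SE 0.09) with the low libraries and at 1.17 (SE 0.05) without them, a rise that follows from the rule.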

How the data were processed

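Messenger RNA of mouse cortex was measured in 48 libraries (Qiagen RNeasy, TruSeq stranded, per the labels). The authors deposited raw read counts per gene, as whole numbers for 48795 genes, and FPKM values, scaled by gene length and library total. Per the submitters' processing notes, the build was GRCm38 (mm10) and the tools included HTSeq 0.12.3, STAR 2.7.5c and SAMtools 1.10; annotation release and strand setting are not given in the sources used here. GENCODE M21 positions were matched to 48349 genes, holding 99.882% of counts.

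Levels printed are CPM of the column total. Fits used R 4.3.3 and edgeR 4.0.16: filterByExpr on genotype kept 20010 genes, with TMM factors, and edgeR's quasi-likelihood test on all 48 libraries with Benjamini-Hochberg adjustment over all genes, called under 0.05. The terms were the library set (low, high, not labelled Q140), altered Msh3 alleles and sex, or, for labelled comparisons, the 6 genotypes and sex, or the Q140 label, Msh3 and sex. Log2 CPM used a prior count of 1.

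Members and the 19 gene lists were chosen with earlier results of these data known. Named genes were the markers, Htt, Msh3, Xist, Ddx3y, the 15 chromosome 5 genes with the smallest p in high against not labelled, outside it the called genes or the 5 with the smallest p per comparison, and 2 members of each list with a called gene; others were named after their values were seen. On simulated counts for low against high, 55.2% of 1.2-fold, 91.0% of 1.5-fold and 98.5% of 2-fold changes were recovered, with 7 false of 170 calls over 20010 genes. Changes were placed only in genes above a floor on mean CPM, so recovery for rare genes such as Gm2420 was not measured. Alternatives used DESeq2 1.42.0 and limma 3.58.1. Replicate numbers did not pair libraries: over 115 same-numbered pairs of different groups, r was -0.24 to 0.11.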

Additional observations from a re-analysis of the deposited data

Results flagged for a closer look

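In 12 genes, 84 groups of 4 to 9 libraries were checked for a library far from the rest of its group, and 10 were found. Chance alone gives about 1 in 20 groups, but that rate does not apply to these genes, which include the markers of the split and genes picked for the smallest p between low and high libraries. Q140 x Msh3+/- male 2, the 1 low library of its group, stood apart from the other 7 for 6 genes: Abhd1 at 2.94 CPM (next 5.68), Atraid at 37.5 (next 31.2), Gm6166 at 20.04 (next 10.3), Ints7 at 48.9 (next 59.6), Fabp5 at 33.6 (next 39.4) and Gm14328 at 3.49 (next 1.89). Abhd1 chose this library, so its place there follows from the rule. Msh3+/- female 3, not labelled Q140, stood apart for Gm6166 at 22.4 CPM (next 10.2) and Gm14328 at 4.32 (next 2.07). Among the 4 low libraries Q140 x Msh3-/- female 3 was lowest for Gm14328, at 1.84 CPM (next 3.49). Msh3-/- female 3 was highest of its group for Gm14328, at 2.67 CPM (next 1.96).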

How the results depend on the processing

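The 4 low libraries were the same on TMM-scaled CPM and on the deposited FPKM. For low against high, 1 gene was called outside chromosome 5. The count was 4 with RLE size factors or without the Msh3 term, 3 without a low-count filter, with DESeq2, with limma on log2 FPKM plus 0.1 or plus 1, or without the sex term, and 6 with limma and voom weights. It was 2 with the replicate block, without the 3 libraries (Q140 male 1, Q140 x Msh3-/- male 4, Msh3+/- male 2) that principal component 2 set apart, with the name stem as a random block, or in the 24 libraries labelled Q140 alone. It was 0 among females only or among libraries with both Msh3 alleles altered, and 0 to 6 when 1 library was left out (5 without Msh3+/- female 3, chosen after seeing the data). For low against not labelled, also 1, it was 2 without the filter, with log2 FPKM plus 0.1 or with the stem, 11 with DESeq2, 18 with voom weights and 3 without the Msh3 term. It was 0 with plate column, with the replicate block or with both Msh3 alleles altered, and 0 to 5 with 1 library left out (4 without Msh3+/- female 3). For high against not labelled, 0, it was 5 with DESeq2 and 2 with voom weights or without those 3 libraries. The next counts are over all chromosomes, and those without the 4 low libraries follow in part from the rule. For Q140 x Msh3-/- against Msh3-/-, 0, it was 5 with DESeq2, 12 with plate column, 2 without the 4 low libraries and 1 to 2 with 1 library left out. For Q140 x Msh3+/- against Msh3+/-, 3, it was 1 with plate column and 5 without the low libraries. For all libraries labelled Q140, 8, it was 13 with DESeq2, 5 and 4 with log2 FPKM plus 0.1 and plus 1, 5 with the replicate block, 4 without the 3 high-Ttr libraries, 5 without the low ones and 5 to 8 with 1 left out. Ttr in Q140 x Msh3-/- against Msh3-/- turned from -4.92 to 0.26 without the high-Ttr libraries, which set that value. The cause of the other shifts was not tested. Over 89 results for counts and named genes, 1629 recomputed values kept direction and call, 36 lost a call, 55 gained one and 1 turned direction. A further 15, given without a test, moved by more than the SD of the high libraries, among them Abhd1 (-0.76) and Gm2420 (-0.21) in low against high on log2 FPKM plus 1. With 4 low libraries, depth limits rare genes such as Gm2420, which had 1 to 3 counts in a low library, and 1.2-fold changes were often missed in the simulation.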
